A study of Homo sapiens with 7 samples.

Results

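Transcript levels of 49 interferon response genes, out of 25702 gene IDs in the deposited count table, were followed through 7 K562 cell lines. The 49 genes were chosen by name, as genes that interferons are known to induce or that carry the interferon signal, and all 49 were found in the table. Earlier results of these data were known when the choice was made. K562 is an established line from the blast crisis of a chronic myeloid leukaemia, growing as erythroblast-like cells that depend on the BCR::ABL1 kinase, and dasatinib is a tyrosine kinase inhibitor of BCR::ABL1. The controls were 2 lines, drug naive K562 and K562 carried in the vehicle DMSO. The dasatinib resistant (DasR) intermediates were 3 early stage lines, held at 10, 15 and 25 nM dasatinib, and 2 late stage lines, held at 50 and 200 nM, taken along 1 escalation that lasted about 11 months in all. Each line gave 1 bulk RNA library of 20059656 to 27844799 counts. The lines are stages of a single lineage, the lines of a group differ in dose, and the split into early and late stage was made by the study from clustering of these same libraries, so the spread within a group holds the effect of dose and the p-values measure only the spread between these libraries.

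Type I interferons are secreted proteins that bind the receptor pair IFNAR1 and IFNAR2. The kinases JAK1 and TYK2 then phosphorylate STAT proteins, and STAT2 with IRF9 and a partner STAT forms a complex that binds the interferon-stimulated response element (ISRE) in the promoters of interferon-stimulated genes. The products of those genes sense foreign nucleic acid, block viral entry, budding or translation, or tag proteins with the ubiquitin-like protein ISG15. Many are also transcribed at a low level without added interferon. K562 is known for a deletion on the short arm of chromosome 9 that takes in the type I interferon gene cluster. Copy number was not measured here.

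Promoter sequences of these genes were searched for the ISRE and for a second element. The ISRE was searched as 2 copies of GAAA with 2 bases of any kind between them, on either strand, so that on the opposite strand it reads as copies of TTTC, and overlapping matches were counted. The window ran from 250 bases before to 50 bases after the start site, as RefSeq gives it for GRCh38.p14. A promoter was matched for 37 of the 49 genes. The motif lay in 20 of those 37 promoters (54.1%), against 996 of all 27305 promoters in the same reference table (3.65%). It was in the promoters of 8 of the 18 matched genes that were abundant enough to test and of 12 of the 19 that were not. A second element, the gamma-activated site, searched as TTC and GAA with 3 bases between them on either strand, lay in 9 of the 37 (24.3%) against 2152 of all 27305 (7.88%). The motif was absent from these windows of STAT2, TRIM25, CMPK2 and RSAD2. The stretches below carry the motif in capitals and are written 5′ to 3′ on the gene's strand, with GRCh37 coordinates from an exact match of the RefSeq sequence. The first 4 belong to well expressed genes whose levels are followed below, and the last 3 to genes that were low or near 0 in these lines.
IFITM1, chr11:313985-314024, plus strand: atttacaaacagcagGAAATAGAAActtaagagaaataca
IFITM3, chr11:320871-320927, minus strand: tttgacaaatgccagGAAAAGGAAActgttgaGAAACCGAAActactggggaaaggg
BST2, chr19:17516539-17516584, minus strand: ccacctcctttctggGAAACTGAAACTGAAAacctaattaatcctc
PLSCR1, chr3:146262449-146262488, minus strand: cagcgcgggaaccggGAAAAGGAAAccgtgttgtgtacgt
IFIT1, chr10:91152249-91152301, plus strand: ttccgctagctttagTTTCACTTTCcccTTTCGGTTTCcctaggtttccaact
ISG15, chr1:948749-948794, plus strand: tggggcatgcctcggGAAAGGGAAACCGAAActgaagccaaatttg
IFI44L, chr1:79086045-79086084, plus strand: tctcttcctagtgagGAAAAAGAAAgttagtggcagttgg
A match to these letters is a description of the sequence and does not show that a factor was bound. The called genes IFITM3, BST2 and PLSCR1 moved in different directions, as given below, and all carry the motif.

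Several of the best known interferon-induced genes were at or near 0 in every line. OAS1, an enzyme that makes the second messenger for RNase L, had 0 counts in all 7 libraries. OASL, IFIT5, IFI44 and IFI44L had 3 counts or fewer in each library, so 5 of the 49 genes never rose above 3 counts, a level that corresponds to 0.108 to 0.15 CPM (counts scaled to a common library size) at these depths. MX1, a GTPase that traps viral nucleocapsids, had 7 counts in the drug naive line, 2 in the DMSO line, 0, 1 and 1 in the 10, 15 and 25 nM lines and 0 in both late stage lines. OAS2 had 4 counts in the DMSO line, 2 in the 15 nM line and 0 elsewhere. IFIT1, which binds viral RNA lacking a host-type cap, had 2 to 9 counts per library. These genes lay under both limits used for testing below, so no difference between lines was tested for them at those limits, and the floors cover counting error only. Of them MX1 had its DasR values all below both controls, on 0 or 1 counts a line. In all, 14 of the 49 genes had a mean of less than 1 CPM over the 7 lines, 13 lay between 1 and 10 CPM, and 22 had 10 CPM or more. The number of the 49 genes above 3 counts was 43 in each control line, 41, 41 and 38 in the 10, 15 and 25 nM lines, and 39 in each late stage line.

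**Figure D1:**
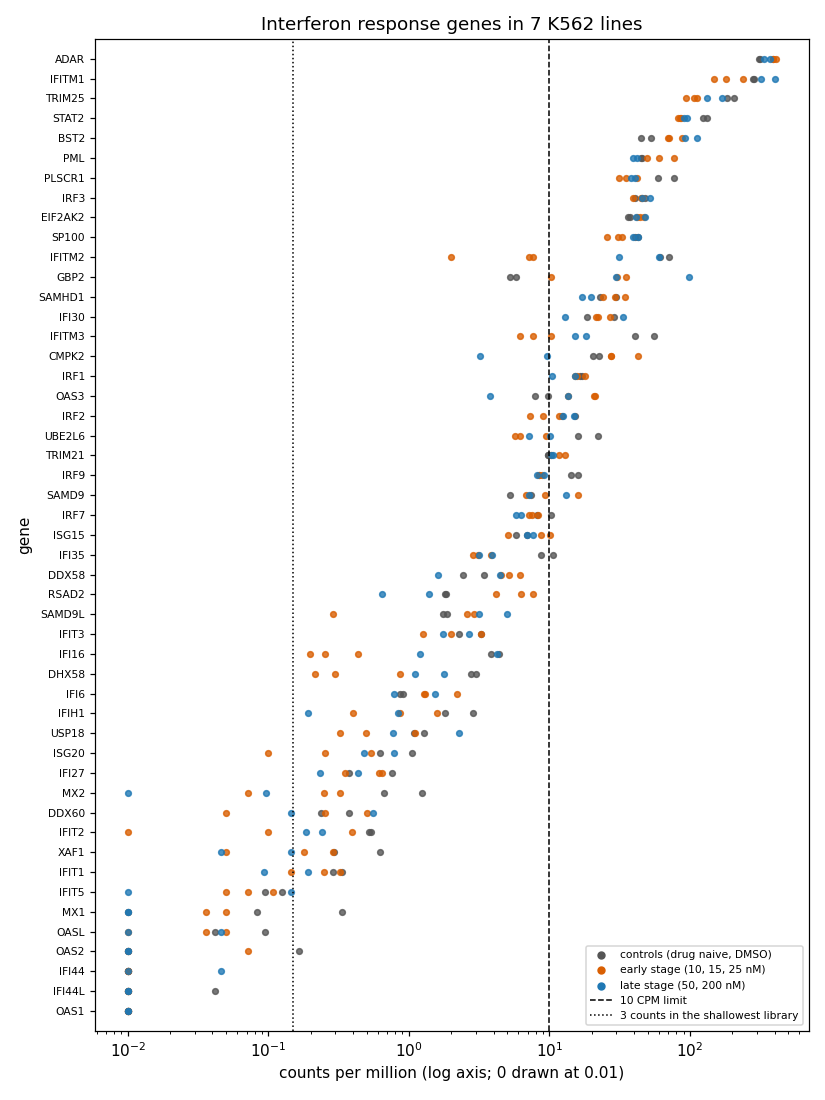
CPM (log axis, 0 drawn at 0.01) of the 49 genes in each of the 7 lines, ordered by mean CPM, with grey points for the 2 controls, orange for the 3 early stage and blue for the 2 late stage lines. The 5 genes at or under 3 counts everywhere lie among the lowest 7 rows, and the points of IFITM2, GBP2 and IFI16 are spread widely.

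The expressed end of the set was held by a few genes. Per length of transcript, IFITM1 was the most abundant, at a mean of 370 RPKM (CPM divided by the length in kilobases) over the 7 lines, followed by BST2 at 80.6, ADAR at 50.8, IFITM2 at 47.0, IFITM3 at 32.8 and IRF3 at 27.9 RPKM, among the 23 genes for which a length was deposited. ADAR, IFITM1 and TRIM25 together made up 50.2% to 57.3% of the counts of all 49 genes in each line. The summed level of the 49 genes was 1517 and 1554 CPM in the controls, 1413, 1285 and 1236 CPM in lines at 10, 15 and 25 nM, and 1537 and 1584 CPM in the 50 and 200 nM lines. The early stage lines had the 3 lowest sums, with no overlap with the other groups.

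Testing used edgeR's quasi-likelihood test over the 10452 genes that reached 10 CPM in at least 2 libraries, 23 of the 49 among them (IRF9 through the 2 controls alone), with the Benjamini-Hochberg false discovery rate (FDR) called at 0.005. In early stage lines against controls, 5 of the 23 fell (21.7%) and 0 rose, where 10.1% of all tested genes were called lower and 7.92% higher. With DESeq2 the counts were 8 lower and 2 higher, ADAR and BST2 (17.6% lower and 16.4% higher over all tested genes), and at an FDR of 0.05 in edgeR 9 lower and 3 higher, with GBP2 added (24.0% and 22.6%). In late stage lines against controls, 1 of the 23 rose and 1 fell, where 3.42% of all tested genes were called higher and 4.56% lower. Both comparisons share the 2 control lines. Without the drug naive, the DMSO or the 25 nM line only IFITM3 stayed called in early stage lines, without the 15 nM line 2 genes did, and no late stage call was left without either control or the 15, 25, 50 or 200 nM line. The 23 genes did not move as a block. Their median log2 fold change was -0.05 in early stage lines, with 10 values above 0 and 13 below, and -0.05 in late stage lines, with 8 above and 15 below, while the medians over all tested genes were 0.00 and -0.00. For this list these are counts and medians only, with no test of the list itself.

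Because the 10 CPM limit drops genes that are low everywhere, the fit was repeated at 1 CPM in at least 2 libraries, which tested 35 of the 49 among 14899 genes. There 8 of the 35 were called lower in early stage lines (22.9%) and 0 higher, against 7.89% lower and 6.39% higher over all genes. In late stage lines BST2 was called higher and no gene lower, where the shares over all genes were 2.5% higher and 3.05% lower. The 3 genes called at this limit alone were IFI16, IFI35 and IRF9.

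Among the 39 genes with at least 50 counts over all libraries, 16 (41.0%) had all 3 early stage values below both controls and 11 (28.2%) had them all above. Over the 16412 genes of that depth the shares were 32.1% and 32.8%. In late stage lines 17 of the 39 (43.6%) were lower than both controls and 8 (20.5%) were higher, where the shares over all genes of that depth were 34.8% and 29.6%.

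**Figure D2:**
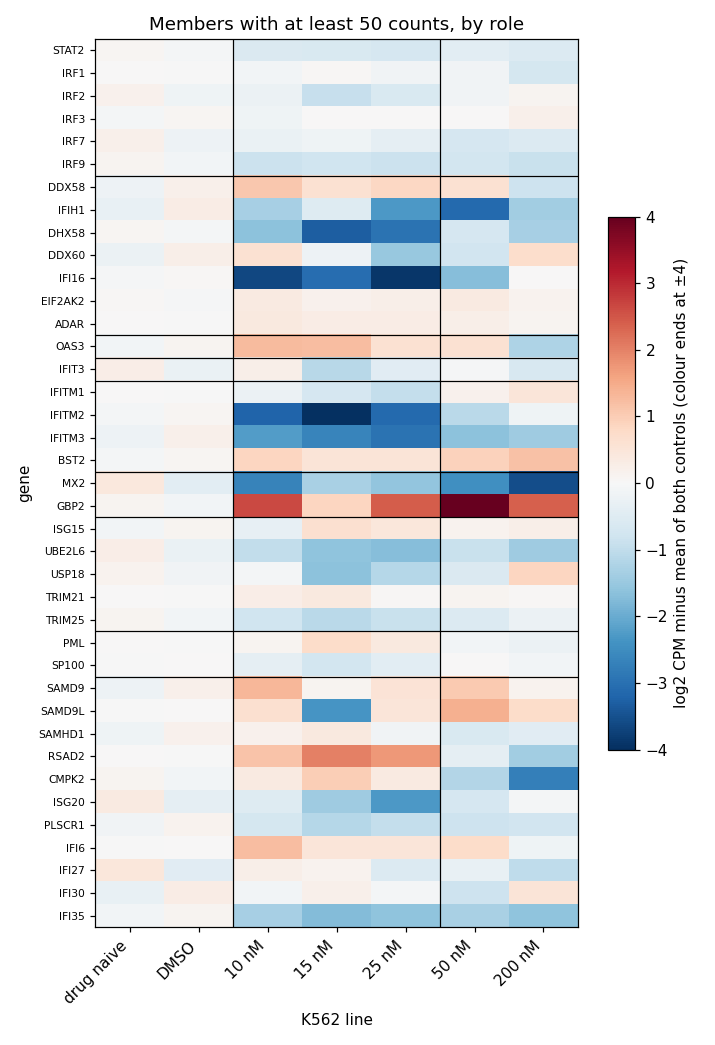
Log2 CPM of the 39 genes with at least 50 counts, in each of the 7 lines, as the difference from the mean of the 2 control lines; blue is lower, red is higher, the colour scale ends at ±4, and horizontal lines part the genes by role. IFITM2, IFITM3, IFI16 and IFI35 are lower in all 3 early stage lines, GBP2 is higher in all 5 DasR lines, and CMPK2 and RSAD2 are higher in early and lower in late stage lines.

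Among the transcription factors of the pathway, 1 of the 5 that were tested fell in early stage lines, where 10.1% of all tested genes fell, and 0 were called in late stage lines, where 3.42% of all tested genes rose and 4.56% fell. STAT2, the STAT particular to type I and III interferon signalling, was at 133 CPM in the drug naive and 124 in the DMSO line, at 85.7, 84.8 and 82.3 CPM in the 10, 15 and 25 nM lines, and at 95.8 and 90.1 CPM in the 50 and 200 nM lines. All 5 DasR lines lay below both controls. The fall in early stage lines was 1.54-fold (log2 fold change -0.62, SE 0.08, edgeR adjusted p = 0.00164), and the late stage difference of -0.49 on the log2 scale had an adjusted p of 0.00887. The early stage call was lost when any 1 of the control or early stage lines was left out, with adjusted p from 0.00538 to 0.015. IRF9, the DNA-binding partner of STAT2, was at 15.9 and 14.3 CPM in the controls, 8.41, 8.87 and 8.38 CPM in early stage lines and 9.17 and 8.2 CPM in late stage lines. Its difference in early stage lines was -0.84 on the log2 scale (SE 0.16, adjusted p = 0.00584), and it passed at the 1 CPM limit (adjusted p = 0.00435). IRF1, IRF2 and IRF3, which bind related elements, were not called in either comparison, and IRF7, the amplifier of the interferon response, lay under the 10 CPM limit at 5.81 to 10.2 CPM.

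Nucleic acid sensors were mostly low, and among the 7 of them only EIF2AK2 and ADAR reached the tested range, with neither called. ADAR, which converts adenosine to inosine in double-stranded RNA, was at 310 and 313 CPM in the controls, 410, 389 and 387 CPM in early stage lines and 372 and 339 CPM in late stage lines. The 5 DasR lines all lay above both controls, and the early stage difference was 0.33 on the log2 scale (SE 0.09, adjusted p = 0.0173). IFI16, a sensor of DNA, had 3.86 and 4.37 CPM in the controls, 0.252, 0.431 and 0.199 CPM in lines at 10, 15 and 25 nM, 1.2 CPM in the 50 nM line and 4.26 CPM in the 200 nM line. The early stage lines were thus far below the controls, while the 200 nM line lay between them. At the 1 CPM limit the early stage log2 fold change was -3.76 (SE 0.57, adjusted p = 0.0027). DHX58, the regulator of RIG-I-like sensors also called LGP2, had 3 and 2.75 CPM in the controls, 0.863, 0.215 and 0.299 CPM in early stage lines and 1.78 and 1.11 CPM in late stage lines, and its early stage value of -2.61 on the log2 scale did not pass at that limit (adjusted p = 0.0083). IFIH1, which encodes the long double-stranded RNA sensor MDA5, ranged from 0.192 CPM in the 50 nM line to 2.87 CPM in the DMSO line and was not called. DDX60, a helicase linked to RIG-I signalling, had 1 to 14 counts per library, too few to compare lines. DDX58 went the other way in early stage lines, at 6.19, 4.49 and 5.18 CPM against 2.43 and 3.41 CPM in the controls. It had 4.47 and 1.62 CPM in late stage lines and was not called at the 1 CPM limit (early stage adjusted p = 0.143). EIF2AK2 lay above both controls in all 5 DasR lines.

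The 3 IFITM genes encode membrane proteins that hinder the fusion of viruses with the cell, and they lie side by side on chromosome 11 (GRCh37, IFITM2 at 303655 to 309397, IFITM1 at 310041 to 315272 and IFITM3 at 319676 to 329475). IFITM2 and IFITM3 had the largest early stage log2 fold changes of the 23 tested genes. IFITM2 was at 61.6 and 70.6 CPM in the drug naive and DMSO lines, at 7.16, 1.98 and 7.63 CPM in the 10, 15 and 25 nM lines, and at 31.4 and 59.9 CPM in the 50 and 200 nM lines. The 3 early stage lines were clearly apart from the other 4, and the 200 nM line came close to the drug naive line. IFITM2 fell 12.0-fold in early stage lines (log2 fold change -3.59, SE 0.51, adjusted p = 0.00192), and the late stage difference of -0.56 did not pass (SE 0.53, adjusted p = 0.443). Leaving out either control line or the 25 nM line ended the early stage call, with adjusted p of 0.0148, 0.0121 and 0.00683.

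IFITM3 was at 40.4 and 55.8 CPM in the controls, 10.2, 7.61 and 6.13 CPM in early stage lines and 15.2 and 18.1 CPM in late stage lines. No early stage line reached a late stage line, and no late stage line reached a control. The fall was 6.05-fold in early stage lines (log2 fold change -2.60, SE 0.23, adjusted p = 0.000359) and 2.93-fold in late stage lines (log2 fold change -1.55, SE 0.25, adjusted p = 0.00496). The early stage call held under all 15 alternative settings tried, with adjusted p up to 0.00379. The late stage call, just inside the threshold, was lost in 9 of 15, among them the settings without either control line, the 15 nM, the 25 nM, the 50 nM or the 200 nM line, where adjusted p ran from 0.007 to 0.0274. IFITM1 followed a different course from controls to late stage lines, with 285 and 283 CPM in the controls, 239, 181 and 148 CPM in lines at 10, 15 and 25 nM, and 321 and 400 CPM in the 50 and 200 nM lines. Its early stage value of -0.60 (SE 0.20, adjusted p = 0.0395) and its late stage value of 0.32 on the log2 scale (SE 0.22, adjusted p = 0.284) did not pass. These genes are near-identical copies in part of their sequence, so reads could be split or dropped among them in counting, and the values of IFITM1, IFITM2 and IFITM3 carry that uncertainty.

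BST2, or tetherin, holds budding virus particles at the cell surface, and it lies on chromosome 19 (17513748 to 17516439). It went the other way, at 44.7 and 52.4 CPM in the controls, 87.9, 70.7 and 69.7 CPM in early stage lines and 91.8 and 113 CPM in late stage lines. All 5 DasR lines lay above both controls. BST2 rose 2.07-fold in late stage lines (log2 fold change 1.05, SE 0.16, adjusted p = 0.00373), and the early stage value of 0.64 had an adjusted p of 0.0105 (SE 0.14). The late stage call was lost without either control line, the 15 nM, the 25 nM, the 50 nM or the 200 nM line, with adjusted p from 0.00587 to 0.0358, and in the fit of late stage and control lines alone (adjusted p = 0.00694).

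**Figure D3:**
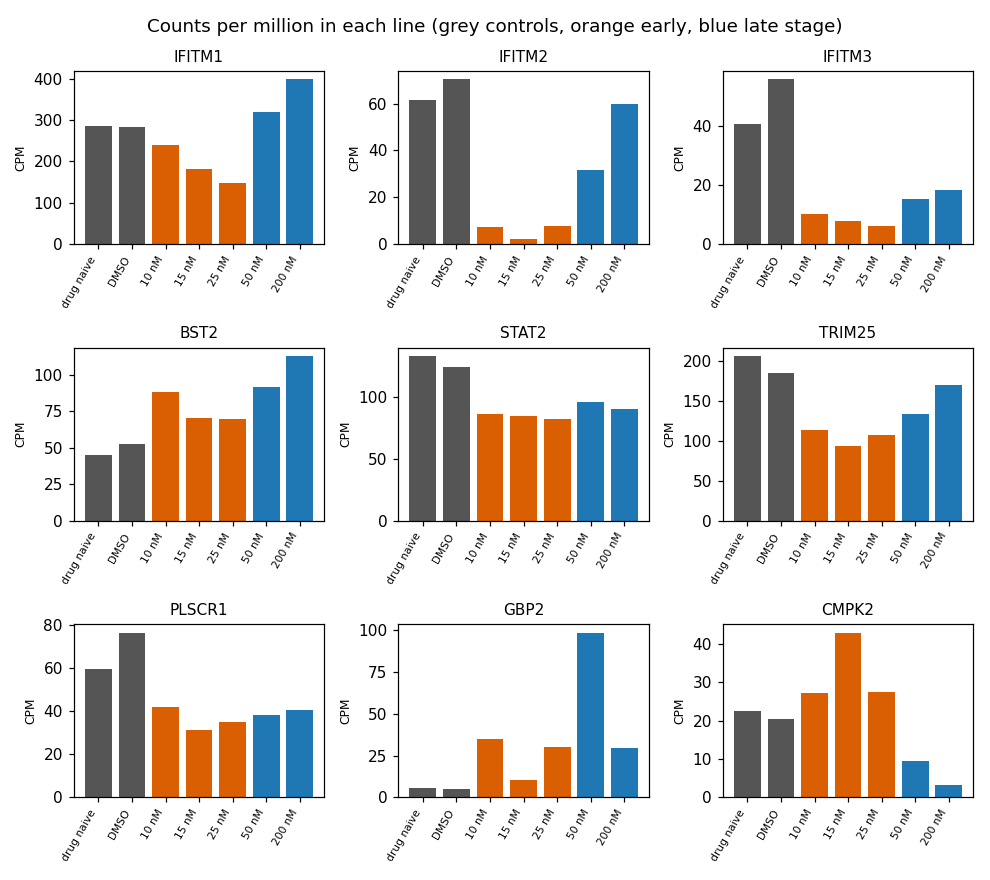
CPM of 9 of the genes in each of the 7 lines as bars from 0 (1 library per line, no error bars; grey controls, orange early stage, blue late stage). IFITM2 and IFITM3 are lowest in the 3 early stage lines, BST2 is above both controls in all 5 DasR lines, GBP2 is highest in the 50 nM line at 98.4 CPM, and CMPK2 is lowest in the 200 nM line at 3.2 CPM.

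In the ISG15 system and the TRIM ligases, 1 of the 3 tested genes fell in early stage lines, next to 10.1% of all tested genes. TRIM25, the ubiquitin ligase that activates RIG-I, was at 206 and 184 CPM in the controls, 113, 93.4 and 107 CPM in early stage lines and 133 and 169 CPM in late stage lines. The early stage lines were the lowest 3 and the late stage lines came between. The early stage fall was 1.90-fold (log2 fold change -0.92, SE 0.13, adjusted p = 0.00212) and the late stage value of -0.40 did not pass (adjusted p = 0.0764). The call was lost without either control, the 15 nM or the 25 nM line, with adjusted p from 0.00648 to 0.0208. UBE2L6, the conjugating enzyme for ISG15, was at 22.3 and 15.9 CPM in the controls, 9.39, 6.21 and 5.73 CPM in early stage lines and 10.1 and 7.13 CPM in late stage lines. All 5 DasR lines were below both controls, with an early stage value of -1.44 on the log2 scale that missed the threshold (SE 0.29, adjusted p = 0.00685). ISG15 itself stayed between 5.11 and 10.1 CPM, with the groups overlapping in early stage lines, and was not called at 1 CPM (early stage adjusted p = 0.41). USP18, which removes ISG15 and dampens the receptor, ranged from 0.323 CPM in the 15 nM line to 2.27 CPM in the 200 nM line and was not called.

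Among the other effectors, PLSCR1, a phospholipid scramblase induced by interferon, fell in early stage lines. It was at 59.5 and 76.6 CPM in the controls, 42, 31.2 and 34.9 CPM in early stage lines and 38.1 and 40.6 CPM in late stage lines. All 5 DasR lines were below both controls, by 1.90-fold in early stage lines (log2 fold change -0.93, SE 0.15, adjusted p = 0.003) and with a log2 value of -0.81 and an adjusted p of 0.0112 in late stage lines. Its call was lost without either control, the 15 nM or the 25 nM line, with adjusted p from 0.00827 to 0.0222. IFI35 was at 8.71 and 10.6 CPM in the controls, 3.81, 2.87 and 3.09 CPM in early stage lines and 3.89 and 3.15 CPM in late stage lines. At the 1 CPM limit it fell in early stage lines (log2 fold change -1.57, SE 0.22, adjusted p = 0.00195) and had a late stage value of -1.44 that missed the threshold (adjusted p = 0.00679). PML and SP100, scaffold proteins of nuclear bodies, SAMHD1, which hydrolyses deoxynucleotides, and IFI30, a lysosomal thiol reductase, were tested and not called. ISG20, an exonuclease, had 0.0997 to 1.05 CPM, with the 3 early stage values below both controls. It lay under both CPM limits.

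**Figure D4:**
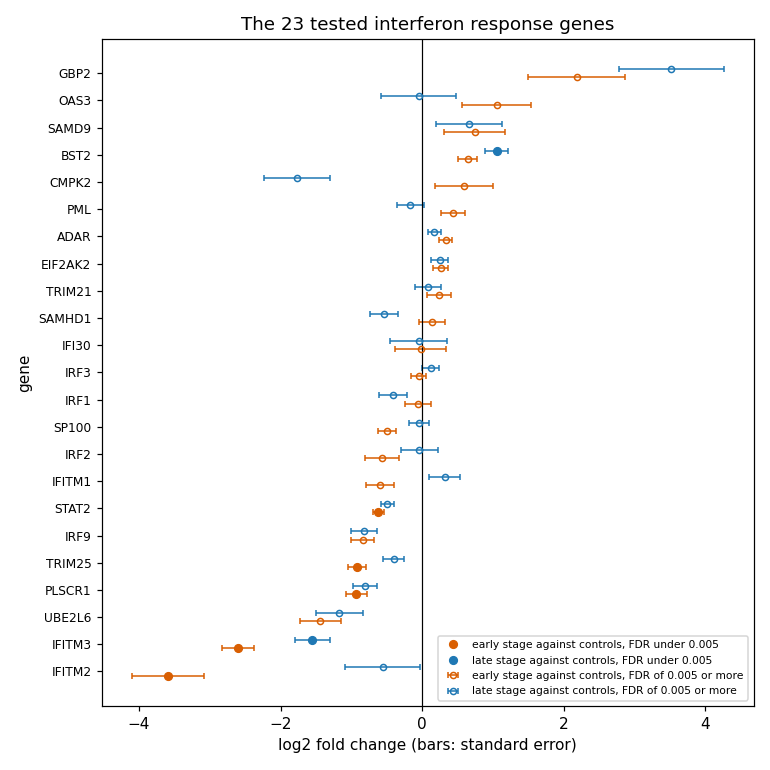
Log2 fold changes of the 23 tested genes, with standard errors as bars, for early stage (orange) and late stage lines (blue) against the 2 control lines; filled points have an FDR under 0.005. The 5 filled early stage points are all below 0, at -3.59 for IFITM2 to -0.62 for STAT2, and the 2 filled late stage points are BST2 at 1.05 and IFITM3 at -1.55.

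Some genes varied widely without reaching a call, and the lines within a group differed too. GBP2, a guanylate-binding GTPase of cell-autonomous defence, was at 5.76 and 5.24 CPM in the controls, 35, 10.2 and 30.3 CPM in early stage lines, 98.4 CPM in the 50 nM line and 29.6 CPM in the 200 nM line. All 5 DasR lines lay above both controls, while the early and late stage lines spread over each other's range. The early stage log2 fold change was 2.18 (SE 0.68, adjusted p = 0.034) and the late stage one 3.52 (SE 0.74, adjusted p = 0.0118). Over the 15 alternative settings the late stage value ran from 2.39 to 4.15, and 3 of them gained a call. The early stage value ran from 1.85 to 2.56, and 1 setting gained a call. Guanylate-binding protein genes are similar copies and GBP2 overlaps GBP7 in the annotation, so its counts are uncertain to that extent. MX2, a GTPase with activity against retroviruses, had control values of 1.24 and 0.666 CPM and DasR values of 0 to 0.323 CPM, with 0 in the 200 nM line. OAS3 had 7.9 and 9.73 CPM in the controls, 21, 20.9 and 13.5 CPM in early stage lines, 13.5 CPM in the 50 nM line and 3.75 CPM in the 200 nM line. The early stage lines all exceeded the controls and the late stage lines fell on either side of them, and neither comparison passed (early stage adjusted p = 0.116).

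CMPK2, a mitochondrial nucleotide kinase, and RSAD2, which encodes the antiviral enzyme viperin, overlap by 1079 bases on opposite strands of chromosome 2 (6980701 to 7006766 and 7005688 to 7038370). CMPK2 was at 22.5 and 20.3 CPM in the controls, 27.3, 42.9 and 27.5 CPM in early stage lines, 9.55 CPM in the 50 nM line and 3.2 CPM in the 200 nM line. RSAD2 was at 1.81 and 1.83 CPM, then 4.17, 7.65 and 6.28 CPM, then 1.39 and 0.648 CPM in the same order. Both genes were above the controls in every early stage line, highest in the 15 nM line, and below the controls in both late stage lines. Neither was called against controls (late stage adjusted p = 0.0253 for CMPK2, early stage adjusted p = 0.0114 for RSAD2 at the 1 CPM limit). The kit keeps strand but whether the counting used it is not stated, so reads from the shared bases cannot be told apart between them. SAMD9 and SAMD9L, paralogous growth and antiviral factors 12032 bases apart on chromosome 7, had different peaks. SAMD9 had 5.28 and 7.4 CPM in the controls, 16, 6.79 and 9.32 CPM in early stage lines and 13.2 and 7.13 CPM in late stage lines, so that the 10 nM line stood highest. SAMD9L had 1.76 and 1.87 CPM in the controls, 2.91, 0.287 and 2.59 CPM in early stage lines and 4.99 and 3.15 CPM in late stage lines, with the 50 nM line highest and the 15 nM line lowest, and neither gene was called.

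**Figure D5:**
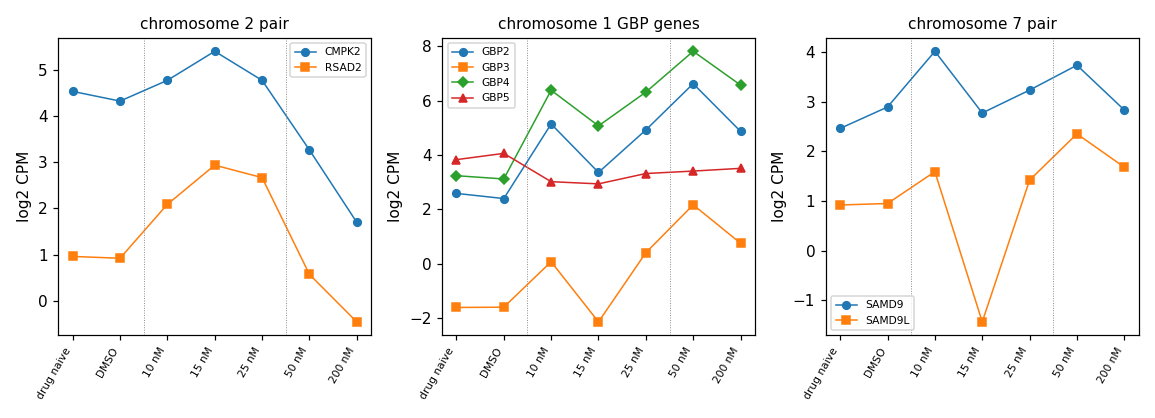
Log2 CPM (TMM scaled, prior count 2) in each of the 7 lines for genes that lie close together, with dotted lines parting controls, early stage and late stage lines. CMPK2 and RSAD2 peak in the 15 nM line and are lowest in the 200 nM line, GBP2 and GBP4 are highest in the 50 nM line while GBP5 is highest in the controls, and SAMD9L is lowest in the 15 nM line.

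Late stage lines were also compared with early stage lines directly. In edgeR no gene out of 10452 reached an FDR under 0.005, so 0 of the 23 were called. An unadjusted p under 0.05 was found for 9 of the 23, where 33.0% of all tested genes had one. At that unadjusted level DESeq2 gave 10 of the 23 (32.1% of all tested genes) and limma voom 11 (32.7%). At an FDR of 0.005 DESeq2 called 4 of the 23 higher and 1 lower, against 5.41% and 5.45% of all tested genes, and limma voom called 0. At an FDR of 0.05 in edgeR, IFITM1, IFITM2, IFITM3 and TRIM25 were higher in late stage lines (4 of 23, 17.4%, where 6.6% of all tested genes were called higher) and CMPK2 was lower (1 of 23, 4.35%, against 6.1%). The log2 differences were 3.03 for IFITM2 (SE 0.51, adjusted p = 0.0187), 1.05 for IFITM3 (adjusted p = 0.0312), 0.92 for IFITM1 (adjusted p = 0.0289), 0.52 for TRIM25 (adjusted p = 0.0474) and -2.36 for CMPK2 (adjusted p = 0.023). The CMPK2 difference ran from -3.36 to -1.76 over the 15 alternative settings. Without the 200 nM line none of the 5 passed an FDR of 0.05, with adjusted p of 0.0982 for IFITM2, 0.164 for IFITM3, 0.161 for IFITM1, 0.262 for TRIM25 and 0.0855 for CMPK2. CMPK2 was also lost without the 15 nM line, IFITM1 and IFITM3 without either control or the 15 or 25 nM line, and TRIM25 when any line other than the 50 nM one was left out. The median over the 23 genes was 0.12, with 13 above 0 and 10 below, and -0.01 over all tested genes.

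Beyond the 49 genes, the rest of the pathway was read from lists of ligands, receptors, adapters, regulators and further induced genes. The interferon ligands were at or near 0. Of 21 ligand genes, 14 had 0 counts in all 7 libraries, 20 never exceeded 3 counts, and 44 counts were found for all of them over all libraries. The receptors and their kinases were all 10 in the tested range. IFNAR1, the receptor chain that binds TYK2, rose in early stage lines, from 74.2 and 80.3 CPM in the controls to 118, 135 and 119 CPM, with 92.6 and 86.2 CPM in late stage lines (early stage log2 fold change 0.66, SE 0.09, adjusted p = 0.00188). JAK1 fell, from 216 and 190 CPM in the controls to 127, 114 and 121 CPM in early stage lines, with 144 and 131 CPM in late stage lines (early stage log2 fold change -0.77, SE 0.11, adjusted p = 0.00171). The other 8 were not called in early stage lines and none of the 10 in late stage lines. So 1 of 10 rose and 1 of 10 fell in early stage lines, close to the 7.92% and 10.1% over all tested genes. Of 15 sensing adapters and kinases 7 were tested, and of 10 negative regulators 8, and none of these was called in either comparison. Over all tested genes 7.92% rose and 10.1% fell in early stage lines and 3.42% rose and 4.56% fell in late stage lines. At the 1 CPM limit 10 sensing adapters and kinases and 10 negative regulators were tested. Of these TLR8, an endosomal receptor for single-stranded RNA, was the only one called, where 7.89% of all genes tested at that limit were lower. It was at 6.57 and 3.58 CPM in the controls, 0.216, 0.144 and 0.349 CPM in early stage lines and 1.06 and 0.556 CPM in late stage lines, and it fell in early stage lines (log2 fold change -4.45, SE 0.49, adjusted p = 0.000898). Only the controls and the 50 nM line reached the limit. TLR8, TMEM173 and MAVS were picked after their values were seen. TMEM173, the adapter STING downstream of cytosolic DNA sensing, was at 105 and 93.7 CPM in the controls, 33.2, 7.47 and 25.2 CPM in early stage lines and 72.7 and 101 CPM in late stage lines, and its early stage log2 fold change of -2.20 missed the threshold (SE 0.51, adjusted p = 0.011). MAVS, of the same list, came closer to the threshold in the other direction (early stage log2 fold change 0.47, SE 0.09, adjusted p = 0.00574). It was at 232 and 212 CPM in the controls, 308, 323 and 304 CPM in early stage lines and 268 and 252 CPM in late stage lines. Of the 7 tested sensing adapters and kinases, 5 had early stage values above 0 and 2 below, with a median of 0.20.

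Of 50 genes listed as further interferon-induced genes, 30 were tested, of which 2 rose and 8 fell in early stage lines and 3 rose and 4 fell in late stage lines. Whether each listed gene responds to interferon in K562 was not measured. This limit bears on ISG20L2, 1 of the genes that rose in both comparisons (log2 fold changes 0.84 and 0.80, adjusted p = 0.0017 and 0.00431). Over all tested genes 7.92% rose and 10.1% fell in early stage lines, and 3.42% rose and 4.56% fell in late stage lines. Their median log2 fold change was -0.45 in early and -0.30 in late stage lines, where the medians over all tested genes were 0.00 and -0.00. WARS, the cytoplasmic tryptophanyl-tRNA synthetase, was at 1160 and 1230 CPM in the controls, 270, 187 and 234 CPM in early stage lines and 422 and 455 CPM in late stage lines. It fell in both comparisons (log2 fold change -2.39, SE 0.15, adjusted p = 0.000132 in early and -1.47, SE 0.17, adjusted p = 0.0015 in late stage lines). CXCL11, a chemokine for T cells, had 13.2 and 13.7 CPM in the controls and 3 counts or fewer in each DasR line. CXCL11 and APOL6 met the 10 CPM limit through the 2 controls alone, so they could enter the test only as genes lower in the DasR lines, and their p-values and places in the counts above are to be read with that limit. APOL6, an apolipoprotein L family gene, was at 33.2 and 27.8 CPM in the controls, 6.36, 3.59 and 4.09 CPM in early stage lines and 8.64 and 8.38 CPM in late stage lines. NCOA7, a gene with an interferon-inducible short form, was at 83.1 and 75.8 CPM in control lines, against 38.9 to 45.7 CPM in all 5 DasR lines. APOL6 and NCOA7 passed in both comparisons, with adjusted p of 0.000476 and 0.000605 in early and of 0.00407 and 0.0021 in late stage lines. GBP4, whose gene lies 30687 bases from GBP2 and which was picked for that after its values were seen, had 9.09 and 8.74 CPM in the controls, 82.8, 33.8 and 79.4 CPM in early stage lines and 223 and 96.3 CPM in late stage lines. It rose in early (log2 fold change 2.86, SE 0.52, adjusted p = 0.00471) and in late stage lines (4.15, SE 0.57, adjusted p = 0.00284). Its order over the lines was much like that of GBP2, with the 50 nM line highest and the 15 nM line lowest among DasR lines.

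The labelled cell type was checked in each library. All 12 erythroid and K562 markers exceeded 3 counts, with HBG2, a fetal haemoglobin gene, the most abundant by the mean over the lines. Their summed level was 4090 and 3500 CPM in the controls, 10100, 11500 and 8670 CPM in early stage lines and 6010 and 4720 CPM in late stage lines, so that the early stage lines had the highest erythroid sums. Globin genes weighed most, with HBG2, HBG1 and HBZ at 3040, 1990 and 1870 CPM in the 10 nM line. GATA1 and LMO2 were instead highest in late stage lines, with GATA1 at 201 and 217 CPM in the controls, 165, 206 and 191 CPM in early and 235 and 295 CPM in late stage lines. Early stage lines held the 3 lowest values of IFITM2, IFITM3, STAT2 and TRIM25. They also held the 3 highest values of ADAR, PML, CMPK2 and RSAD2. In bulk RNA a lower level in each cell and fewer cells of a kind cannot be told apart. The 8 lymphocyte markers summed to 25.3 and 19.1 CPM in the controls, 10, 8.37 and 15.8 CPM in early stage lines and 35.4 and 37.1 CPM in late stage lines. CD3D was the most abundant of them by the mean over the lines, and CD2 and MS4A1 had 3 counts or fewer everywhere. This sum was lowest in early stage lines. The 6 monocyte and macrophage markers summed to 124 and 108 CPM, then 128, 42.4 and 67.9 CPM, then 141 and 146 CPM, with LYZ the most abundant by the mean over the 7 lines and CD68 above it in both controls. Single markers of this list went different ways, since CD68 was at 66.5 and 63.2 CPM in the controls and 15.3 to 23.8 CPM in early stage lines, while CD14 was at 0.286 and 0.208 CPM in the controls and 0.947 to 1.11 CPM in early stage lines. The 6 fibroblast markers summed to 5.05 to 19.6 CPM, with COL1A1 the most abundant by the mean over the lines and PDGFRA at 3 counts or fewer. The highest sum, in the DMSO line, was mostly COL1A2 at 14.3 CPM. The part of these markers in the results above was not tested.

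Within groups, the 2 control lines were close and the 2 late stage lines less so. The median absolute log2 difference over the 23 tested genes was 0.19 between the DMSO and drug naive lines and 0.24 between the 200 and 50 nM lines, where it was 0.15 and 0.18 over all tested genes. Over the 39 genes with at least 50 counts the same medians were 0.22 and 0.57, against 0.20 and 0.24 over all genes of that depth. The widest late stage gaps among genes named above, from the 50 to the 200 nM line, included OAS3 (a log2 difference of -1.85), GBP2 (-1.75) and IFI16 (1.74).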

How the data were processed

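RNA was depleted of ribosomal and non-coding RNA, made into directional libraries and sequenced as paired reads. The authors aligned reads to hg19 (GRCh37) with STAR and deposited raw counts per NCBI gene ID from featureCounts, with versions not given in the sources used here, nor whether counting used strand. The labels give the molecule as polyA RNA, and the protocol gives ribosomal depletion. The authors also deposited tables of their own comparisons, which hold edgeR's p-values, FDR, log2 fold changes and average log2 CPM. None of those values was used, and only gene symbols and lengths were read from them. No column was left unused (0 columns).

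Of the 49 genes, 23 were named by the deposited tables, 25 by RefSeq symbols and 1 by a synonym (DDX58). CPM is scaled by the library's total count, and RPKM divides it by the deposited length. Counts were tested with edgeR 4.0.16 in R 4.3.3 (TMM scaling, 1 coefficient per group over all 7 libraries, at least 10 CPM in 2 libraries, Benjamini-Hochberg FDR 0.005). SE is the log2 fold change over the square root of F. The script was tested on simulated data. Alternatives were limits of 1 CPM and none, relative log expression (RLE) scaling, library totals, DESeq2 1.42.0, limma 3.58.1 voom, fits of 2 groups alone, FDR 0.05, and each library left out in turn. The genes and lists were chosen with earlier results of these data known. Genes named in the text were those passing the FDR, the 15 with the widest range of log2 CPM (prior count 2) among those with at least 50 counts, the 5 with the highest mean CPM, and at most 4 passing per pathway list, and others are named as values or as members of a group. Library totals limit precision, and a floor of 3 counts was used.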

Additional observations from a re-analysis of the deposited data

How the results depend on the processing

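No paired analysis was possible because the labels carry no replicate numbers that tie libraries of different groups. Of 538 alternative values for the 12 named and tested genes, 470 kept their direction and side of the threshold, 32 lost a call and 33 gained one. The other 3 reversed, none of them called: OAS3 in late against control went from -0.05 to 0.07 without the DMSO line and to 0.61 without the 200 nM line, and UBE2L6 in late against early from 0.27 to -0.02 without the 50 nM line. With a library left out these ran from -1.26 to 0.61 for OAS3 and from -0.02 to 0.53 for UBE2L6. In early against control, the members called went from 5 to 8 at 1 CPM, 9 with no filter on low counts, 10 with DESeq2, 12 at FDR 0.05 and 1 to 5 with a library left out. The genes called over the whole table went from 1881 to 3548 with DESeq2, 4865 at FDR 0.05 and 187 to 2074 with a library left out, and the median member log2 fold change of -0.05 to -0.42 with no filter and -0.12 to 0.10 with a library left out. In late against control, the 2 members called became 1 at 1 CPM, 1 with library totals, 8 with DESeq2, 0 with the 2 groups alone, 8 at FDR 0.05 and 0 to 2 with a library left out. The 834 genes called became 1287 with no filter, 2503 with DESeq2, 335 with the 2 groups alone, 3542 at FDR 0.05 and 30 to 601 with a library left out. The median of -0.05 became -0.14 at 1 CPM, -0.40 with no filter, -0.17 with voom, -0.17 with the 2 groups alone and -0.20 to -0.05 with a library left out. In late against early, the 0 members called became 2 with no filter, 5 with DESeq2, 5 at FDR 0.05 and 0 to 1 with a library left out, and the 0 genes called 295, 1135, 1328 and 0 to 200. Leaving out a control leaves 1 control library, which is assumed to vary like the other groups, and the lowest counts in both comparisons with controls came without the drug naive line (187 and 30 genes), next to 461 and 95 without DMSO, 533 and 276 without 25 nM, 301 in the late comparison without 50 nM and 292 without 200 nM, and 1127 and 878 in the early one without 10 and 15 nM. The 200 genes of late against early came without the 50 nM line. The cause of these differences was not tested, other than that a limit of 1 CPM or none tests more genes and that leaving out a library leaves fewer samples. With 1 library per line, dose, time in culture and line cannot be told apart.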
